A study of Mus musculus with 3 samples.

Results

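The genes described here are those that encode integrin chains and the numbered cadherins. They were chosen by symbol: every gene listed in the 3 count tables whose symbol starts with Itga or Itgb plus a chain code, or is Cdh plus a number alone, with at least 50 UMIs (unique molecular identifiers, each standing for 1 captured RNA molecule) in all. Of 47 such symbols, 36 passed: 17 integrin alpha chains, 8 integrin beta chains and 11 cadherins, of 22535 genes listed in all. The 11 symbols that did not pass were too sparse to describe by cell type. Itgb2l with 39 UMIs, Cdh23 with 37 and Cdh22 with 30 lay just outside the minimum, and Cdh17 with 72, Itga10 with 213 and Itgae with 239 just inside it.

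The libraries were BD Rhapsody single-cell RNA libraries from the kidney cortex of WT1CreERT2; Rosa26-tdTfl/+ mice. In these mice tamoxifen switches on the red protein tdT in cells that express Wt1 at that time, and in their descendants, so tdT marks a cell's past and covers podocytes as well as parietal epithelial cells (PECs, the lining of Bowman's capsule). Sham was a mixture of sorted tdT+ and tdT- cells at 2 to 1 from sham-operated mice. For IRI24h-TDN the mixture was made 24 h after both kidneys had gone through severe ischemia and reperfusion (IRI). For IRI24h-TD only sorted tdT+ cells were loaded, at the same time after the same injury. Each group was 1 library made from pooled kidneys, so animals cannot be told apart and no difference between groups has a replicate. All 3 groups carry the same alleles, and the shares of cell types in them were set by the sort and the mixing.

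Integrins are receptors of 1 alpha and 1 beta chain that hold cells to the extracellular matrix or, on leukocytes, to other cells, and the alpha chain largely sets the ligand. In the glomerulus the pair of Itga3 and Itgb1 binds laminin and holds podocyte foot processes to the basement membrane, and loss of either chain in podocytes causes proteinuria. Classical cadherins bind the same cadherin on the next cell and connect to actin through catenins. Cdh1 (E-cadherin) and Cdh16 (kidney-specific cadherin) belong to tubule epithelium, Cdh5 (VE-cadherin) to endothelium, and Cdh6 (K-cadherin) is known from the developing nephron and proximal tubule.

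Sham held 10062 barcodes and 69980443 UMIs, IRI24h-TDN 10062 and 92355554, and IRI24h-TD 9884 and 93470709. The equal barcode counts of the first pair were not a copied table: 102 barcode sequences were shared, and each table listed 20800 genes of which 19424 were in both. After filtering, 26760 cells remained, with median depths of 7746, 9151 and 9529 UMIs, and 82 to 96 barcode sequences were shared by any 2 libraries. Cells were clustered and named from marker lists: 18341 podocytes, 1257 PECs, 850 proximal tubule epithelial cells (PTECs), 580 cells of the ascending limb, 492 of the distal convoluted tubule, 605 of the connecting tubule and collecting duct, 540 intercalated, 310 endothelial, 749 mesangial and smooth muscle, 175 fibroblast, 1304 monocytic, 22 neutrophil and 75 lymphocyte cells were named as such ("-like" is meant throughout), and 937 cells stayed unnamed. A further cluster of 523 cells, called the Havcr1-led tubule cluster here, held markers of tubule injury at 10433 CPM in IRI24h-TDN but at 291 in Sham, where its cells carried PTEC markers at 25386, so in Sham the data go against an injury label. CPM is UMIs of a gene per 1000000 UMIs of all cells of that class in that library. Podocyte RNA was found in every class: the podocyte gene Nphs1 (nephrin, of the slit diaphragm) stood in other classes at 0.909% to 88.2% of its podocyte level, the highest in the 20 neutrophils, whose podocyte markers summed to 30099 CPM against 2412 for their own. RNA free in the wells and cells captured together cannot be told apart here. The level this RNA alone would give is stated below where it comes near a measured one. All intervals are exact 95% intervals (Poisson for levels, binomial for shares and ratios) and cover counting error only.

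The genes fell into a few groups by the cell class in which they stood highest. By the mean of the libraries, 5 led in podocytes, 5 in monocytic cells, 4 each in PECs, mesangial and smooth muscle cells and lymphocytes, 3 each in connecting tubule and endothelium, 2 each in ascending limb, distal convoluted tubule and fibroblasts, and 1 each in intercalated cells and neutrophils. The leading class was the same in every library that held at least 20 of its cells for 22 of the 36 genes. For 13 genes the leading class stood less than 1.5-fold over the next, so their order is not separated: Itgb1 (4173 CPM in podocytes and 3814 in neutrophils), Itgav (662 in neutrophils, 652 in intercalated cells and 642 in podocytes) and Itgb8 (230 in podocytes and 224 in PTECs) are examples. The neutrophil values of Itgb1 and Itgav were near what podocyte RNA alone would give, 4360 and 615 CPM. Only 4 genes led by 5-fold or more: Cdh5 in endothelium, and Itga7, Itga10 and Itga8 in mesangial and smooth muscle cells. Reads of a UMI library come from 1 end of each RNA, so levels were not divided by gene length, and differences in capture between genes remain. The map of levels shows these groups as separate blocks.

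**Figure D1:**
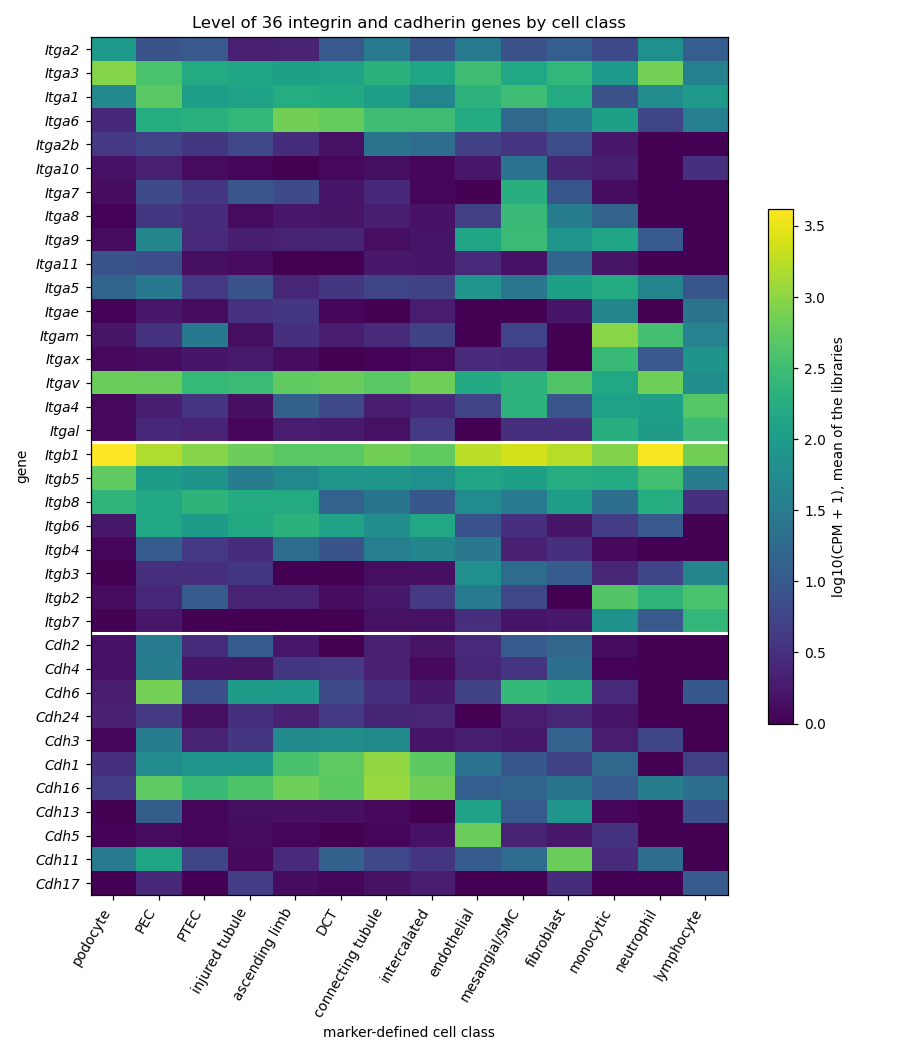
Level of each of the 36 genes (rows) in each of the 14 cell classes (columns), as log10(CPM + 1) of the mean over libraries with at least 20 cells of the class. Itgb1 and Itgav are present in every class, whereas Cdh5 stands at 647 CPM in endothelium and at no more than 2.41 elsewhere.

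Podocytes carried Itgb1, Itga3, Itgav, Itgb5 and Itgb8 at high levels in every library. Itgb1, the common beta chain, stood at 2732 CPM in Sham (interval 2715 to 2749) against 4943 in IRI24h-TDN (4923 to 4962) and 4844 in IRI24h-TD (4830 to 4859). Both injured libraries were therefore above Sham, by less than the 2-fold used to count a gene. The same held cluster by cluster: Itgb1 lay between 2112 and 2845 CPM in the podocyte clusters of Sham and between 3612 and 5760 in those of IRI24h-TDN, with no overlap. These clusters are parts of the same libraries and are not replicates. The share of all genes that separate in this way is not given here.

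Itga3, the laminin-binding partner of Itgb1 in podocytes, stood at 899.9, 959 and 918 CPM in Sham, IRI24h-TDN and IRI24h-TD. Its podocyte clusters overlapped between libraries, with 830.2 to 974 CPM in Sham and 863 to 995 in IRI24h-TDN. Itgav, the alpha chain of receptors that bind RGD motifs in vitronectin, fibronectin and latent TGF-beta, stood at 547, 698 and 682 CPM. Its beta partner Itgb5, which binds vitronectin, was lower in both injured libraries, at 734, 440.3 and 476 CPM. Itgb8, the partner that binds latent TGF-beta, stood at 273, 210.3 and 206 CPM.

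Itga2, a collagen-binding alpha chain, stood at 42.1 CPM in podocytes of Sham against 109 in IRI24h-TDN and 107 in IRI24h-TD. Against Sham these were ratios of 2.59 (interval 2.45 to 2.75) and 2.54 (2.40 to 2.68). A UMI of Itga2 was found in 21.0%, 51.2% and 49.9% of podocytes, and in 8.60%, 21.0% and 20.7% after each cell was thinned to 2400 UMIs. In the ascending limb, at median depths of 5653 and 10076 UMIs against 8242 and 9328 in podocytes, the share was 0.848% in Sham and 1.34% in IRI24h-TDN. Itga5, the fibronectin receptor's alpha chain, was low in podocytes and also higher in both injured libraries, at 7.25, 17.8 and 16.6 CPM (ratio 2.46, interval 2.14 to 2.83, in IRI24h-TDN). Itga1, another collagen-binding chain, stood at 50.5, 49.9 and 48.9 CPM, with overlapping intervals. Itga6, the chain of epithelial laminin receptors, was close to absent in podocytes, at 0.894 to 2.54 CPM.

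In podocytes, 19 of the 36 genes had at least 50 UMIs over Sham and IRI24h-TDN together. Of these, 3 were at least 2-fold higher in IRI24h-TDN, where 4.53% of all genes compared were, and 2 were at least 2-fold lower, where 6.95% were. The 3 were Itga2, Itga5 and Itgam, and the 2 were Cdh4 and Cdh6. Itgam, Cdh4 and Cdh6 stood at 1.25 CPM or less in IRI24h-TDN podocytes and at most 1.5 in Sham. The median log2 ratio was 0.09 over the 19 genes and -0.04 over all genes compared. In IRI24h-TD against Sham, 20 genes were compared, 2 were higher (all genes 4.65%) and 5 lower (7.97%). The 2 were Itga2 and Itga5. The 5 were Cdh1, Cdh4, Cdh16, Itga10 and Itgb6, which all stood at or under 5.95 CPM in podocytes. Cdh16 and Itgb6 stood higher in PECs and in tubule classes, and Cdh1 in tubule classes. Both comparisons use the one Sham library and are not independent of each other.

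**Figure D2:**
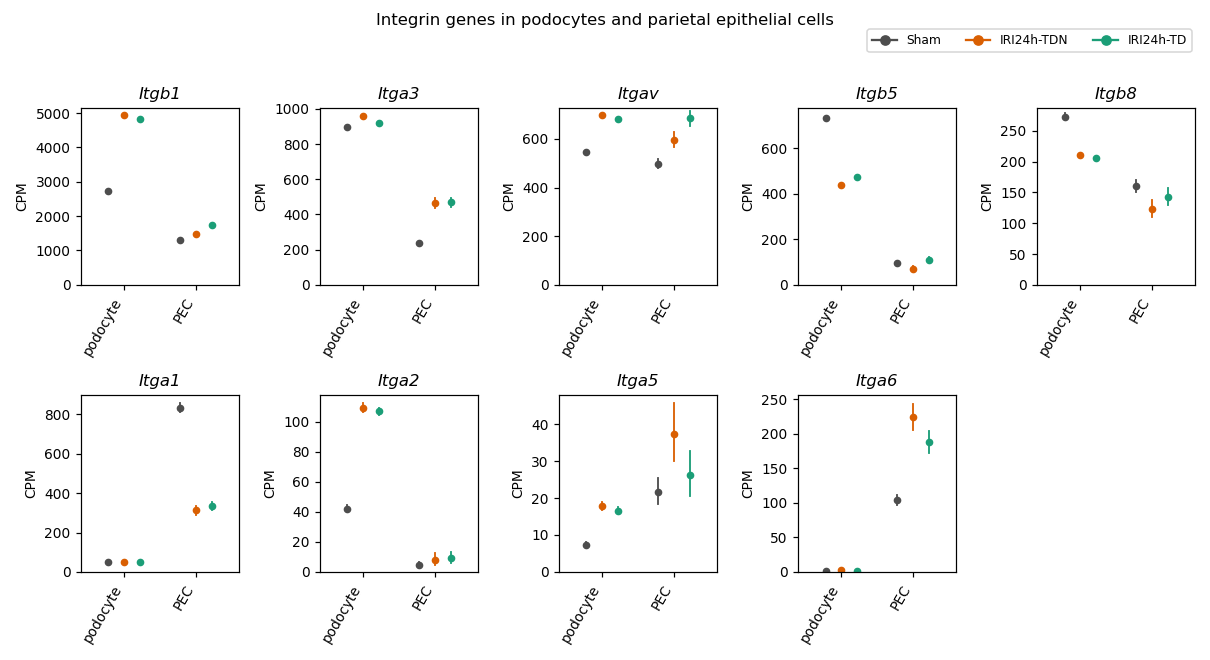
Levels of 9 integrin chains in podocytes and PECs of the 3 libraries, in CPM with 95% Poisson intervals as bars. Itgb1 and Itga2 lie higher and Itgb5 lower in podocytes of both injured libraries, and Itga1 lies lower in PECs of both.

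PECs differed from podocytes in which alpha chains they carried, and Itga1 and Itga9 were lower in both injured libraries. Itga1 stood at 835 CPM in Sham PECs (interval 813 to 856) against 312 in IRI24h-TDN (290.0 to 335) and 334 in IRI24h-TD (313 to 356). Sham was 2.68-fold over IRI24h-TDN. Itga9, the chain that binds tenascin and osteopontin, stood at 82.9, 20.9 and 25.4 CPM, a Sham to IRI24h-TDN ratio of 3.96. Markers of other classes also moved in these cells: PTEC markers summed to 4215, 2060 and 1208 CPM and tubule injury markers to 3312, 12329 and 10622, while PEC markers stood at 7524, 9295 and 10758. Their part in the PEC differences given here, that of Cdh16 included, was not tested. Both injured libraries lay below Sham in each of the 3 PEC clusters for both genes. In the cluster of 361 Sham cells Itga1 stood at 887, 290 and 352 CPM, in that of 236 Sham cells at 325, 176 and 125, and in that of 181 Sham cells at 1134, 483 and 479.

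Of the laminin-binding chains, Itga3 and Itga6 lay the other way. Itga7, another, was at least 2-fold lower in PECs of IRI24h-TD than in those of Sham, but not in those of IRI24h-TDN. It rested on few UMIs in Sham, IRI24h-TDN and IRI24h-TD. These were 26, 11 and 2 in the cluster of 361 Sham cells, 20, 6 and 6 in that of 236, and 4, 0 and 1 in that of 181. Itga3 stood at 238, 463 and 469 CPM in PECs of Sham, IRI24h-TDN and IRI24h-TD, and podocyte RNA alone would give 62.0, 56.6 and 107. Within the 3 clusters Itga3 stood at 177, 449 and 490 CPM in the first, 385, 493 and 402 in the second, and 251, 492 and 477 in the third, so the difference was small in the second. Itga6 stood at 104, 224 and 188 CPM, and its ratio of 2.15 in IRI24h-TDN to Sham went under 2-fold in 7 alternative settings. Itgb1 stood at 1319, 1488 and 1752 CPM, of which podocyte RNA alone would give 188, 292 and 566. Itgb6, an epithelial partner of Itgav that activates latent TGF-beta, stood at 156, 152 and 126 CPM and was nearly absent from podocytes, at 0.346 to 1.09.

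Among cadherins, PECs led for Cdh6, Cdh2 and Cdh4. Cdh6 stood at 469 CPM in Sham PECs (interval 453 to 485) against 790 in IRI24h-TDN (754 to 826) and 916 in IRI24h-TD (882 to 952), while podocytes held at most 1.5. Most of the Cdh6 difference lay in 1 cluster, where it stood at 691, 1645 and 1646 CPM. In the other two it stood at 477, 660 and 911 CPM and at 171, 207 and 137. Cdh16 lay lower after injury, at 697, 468 and 412 CPM. Cdh1 was low in PECs, at 27.4, 82.9 and 55.3 CPM, with ratios to Sham of 3.02 (2.46 to 3.70) and 2.02 (1.62 to 2.50). Cdh11, a mesenchymal cadherin, stood at 177, 109 and 113 CPM and came from 2 of the 3 PEC clusters, with 351 and 307 CPM over the 3 libraries against 17.0 in the third. Cdh2 (N-cadherin) stood at 32.8, 27.6 and 30.9 CPM, with overlapping intervals.

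Of 22 genes compared in PECs between IRI24h-TDN and Sham, 2 were at least 2-fold higher (Cdh1 and Itga6, against 4.06% of all genes) and 4 lower (Itga1, Itga9, Itga11 and Cdh4, against 8.2%). Of 23 compared between IRI24h-TD and Sham, 1 was higher (Cdh1, against 3.8%) and 4 lower (Itga1, Itga7, Itga9 and Itga11, against 7.12%). Cdh4 stood at 40.1, 19.7 and 36.4 CPM, so its value in IRI24h-TD was near Sham. The makeup of the PEC class also differed, since the 3 clusters held 361, 236 and 181 cells of Sham, 114, 50 and 45 of IRI24h-TDN and 127, 84 and 59 of IRI24h-TD.

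Tubule classes carried Itga6, Itgav and Itgb6 together with Cdh1 and Cdh16. Itga6 stood highest in the ascending limb, at 299.6 CPM in Sham (interval 263 to 340) and 1135 in IRI24h-TDN (1105 to 1166), a ratio of 3.79 (3.33 to 4.33). It was also higher in the connecting tubule, at 145 and 386 CPM (ratio 2.66), and stood at 294 and 674 CPM in the distal convoluted tubule, where Sham held only 48 cells. Over the 9 classes with at least 50 cells in both libraries, the Itga6 log2 ratio was above 0 in 9, from 0.29 in mesangial and smooth muscle cells to 1.92. These classes come from the same pair of libraries and are not independent. Median mitochondrial shares of UMIs in Sham and IRI24h-TDN were 27.9% and 23.8% in the ascending limb and 18.7% and 15.7% in the connecting tubule. They were 28.2% and 17.9% in the Havcr1-led cluster, against 3.82% and 3.61% in podocytes. At a limit of 20% the ascending limb kept 29 Sham cells, too few to be compared.

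Itgav stood at 336 CPM in the ascending limb of Sham and 741 in IRI24h-TDN (ratio 2.21, interval 1.95 to 2.51), and at 390.1 and 915 in intercalated cells (ratio 2.34). Its beta partners differed by segment. Itgb6 stood at 90.8 and 202 CPM in intercalated cells, at 232 and 195 in the ascending limb and at 57.2 and 68.9 in the connecting tubule. Itgb8 stood at 90.4 and 230 CPM in the ascending limb, a ratio of 2.54 (2.01 to 3.27), and at 303 and 146 in PTECs, where IRI24h-TDN held only 33 cells. In the distal convoluted tubule Itgb8 was at 3.48 and 3.49 CPM. The intercalated values of Itgb8, 3.84 and 14.0 CPM, were near the 9.74 and 11.7 that podocyte RNA alone would give.

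Among the 3 tubule segments compared, the largest ratio was that of Itga2 in the connecting tubule. It had 2 UMIs in 234 Sham cells (1.06 CPM) and 171 UMIs in 344 IRI24h-TDN cells (47.5 CPM), a ratio of 44.9 with an interval of 12.2 to 374. Podocyte RNA alone would give 1.32 and 4.98 CPM. The 27 cells of IRI24h-TD stood at 45.2 CPM from 11 UMIs. Itgb4, the beta chain that pairs with Itga6 in hemidesmosomes, stood in the same cells at 4.76 and 35.3 CPM (ratio 7.41, interval 3.78 to 16.6). Among the named classes Itgb4 was highest in intercalated cells, at 37.0 CPM in Sham and 53.0 in IRI24h-TDN. Itga2b, known as a platelet chain, was found at 23.8 and 14.2 CPM in the connecting tubule and at 27.9 and 9.84 in intercalated cells, while its only partner Itgb3 had 0 and 4 UMIs in the connecting tubule, where a count of 0 allows up to 1.59 CPM.

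Cdh1 was higher after injury in most tubule segments, but by less than 2-fold. It stood at 734 and 1182 CPM in the connecting tubule, 393 and 630.0 in intercalated cells, 385 and 622 in the distal convoluted tubule, and 368 and 387 in the ascending limb. Cdh16 lay lower in the connecting tubule, at 1679 and 897 CPM, and in the ascending limb, at 813 and 509.9, and higher in intercalated cells, at 565 and 792. By class, Cdh3 (P-cadherin) was low and stood highest in the distal segments, with 31.9 CPM in PECs and under 1 in intercalated cells in the mean of the libraries. In the PEC cluster of 181 Sham cells it reached 75.8, 51.55 and 63.2 CPM in Sham, IRI24h-TDN and IRI24h-TD. It stood at 32.2 and 72.3 CPM in the ascending limb (ratio 2.25) and 20.6 and 45.8 in the connecting tubule (ratio 2.22).

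**Figure D3:**
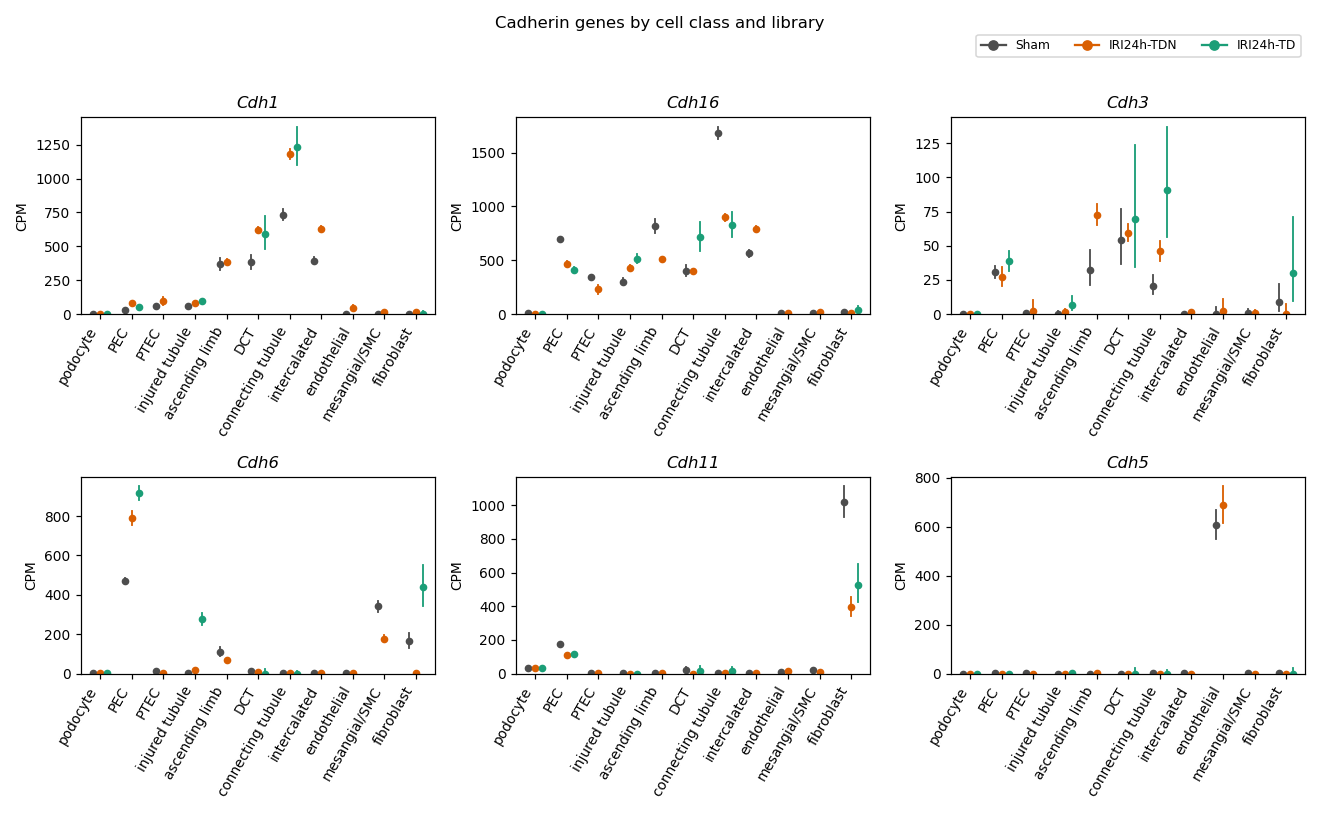
Levels of 6 cadherins in 11 cell classes, 1 point per library in CPM with 95% Poisson intervals. Cdh1 stands highest in the tubule segments past the PTECs, Cdh16 is carried by tubule classes and PECs alike, Cdh6 stands highest in PECs, Cdh11 in fibroblasts and next in PECs, and Cdh5 in endothelium.

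In IRI24h-TDN against Sham, 5 of 14 genes compared were higher in the ascending limb (8.42% of all genes) and 1 lower (9.15%), 4 of 14 higher in the connecting tubule (7.16%) and none lower (5.53%), and 5 of 13 higher in intercalated cells (7.39%) and 2 lower (4.7%). The median log2 ratio of the members was 0.78 in the ascending limb, 0.59 in the connecting tubule and 0.68 in intercalated cells, and that of all genes compared was -0.06, -0.01 and -0.03. The higher genes were Itga6, Itga7, Itgav, Itgb8 and Cdh3 in the ascending limb, Itga2, Itga6, Itgb4 and Cdh3 in the connecting tubule, and Itga2, Itgav, Itgb1, Itgb6 and Itgb8 in intercalated cells. Itga7 in the ascending limb rested on 1 UMI in Sham and 50 in IRI24h-TDN. The Itgb8 values of intercalated cells were near what podocyte RNA alone would give, as stated above. Podocytes also carried Itgb1 and Itga2, and the part of podocyte RNA in their intercalated levels was not tested. The lower genes were Itgb5 in the ascending limb, at 65.6 and 30.8 CPM, and Itga1 and Itga2b in intercalated cells.

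The intercalated class joined 2 clusters whose mix differed between libraries. The one led by Aqp6 and Slc4a1 held 130 cells of Sham and 152 of IRI24h-TDN, and the one led by Slc26a4 held 51 and 194. Itgav stood at 373 and 677 CPM in the first and at 422 and 1047 in the second, Itgb6 at 114 and 212 and at 48.2 and 196, and Itgb1 at 369 and 1033 and at 336 and 553. Itga2b stood at 20.6 and 5.26 CPM in the first and at 41.3 and 12.4 in the second. Each gene thus lay the same way in both clusters as in the class, with Itgav and Itgb6 in the first and Itgb1 in the second under 2-fold.

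In the Havcr1-led tubule cluster, Itgb1 stood at 299.5 CPM in Sham against 797 in IRI24h-TDN and 833 in IRI24h-TD. Itga6 stood at 137 and 307 CPM and Itgb6 at 90.2 and 192 in Sham and IRI24h-TDN. Cdh2 had 0 UMIs in 287 Sham cells and 50 UMIs in 126 IRI24h-TDN cells, at least 10.2-fold higher against a floor of 3 UMIs in the Sham library. Of 11 genes compared, 4 were higher (26.9% of all genes) and none lower (8.57%). With TMM factors, 2 were higher and 1 lower. All genes compared had a median log2 ratio of 0.48 here, the 11 a median of 0.51, and the median depth was 4698 UMIs in Sham and 16556 in IRI24h-TDN. Cdh6 stood at 2.69, 18.6 and 277 CPM in Sham, IRI24h-TDN and IRI24h-TD. The PEC markers of the same cells stood at 320, 1946 and 3279 CPM, and their part in the Cdh6 levels was not tested.

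Endothelial cells were set apart by Cdh5, at 607 CPM in Sham (interval 551 to 667) and 688 in IRI24h-TDN (616 to 765), which was 269-fold over the next class in the mean. Cdh13 (T-cadherin, which has no cytoplasmic tail) stood at 38.3 and 204 CPM, a ratio of 5.33 (3.45 to 8.48), and Itgb3, the beta chain of the vitronectin receptor, at 15.6 and 112 CPM, a ratio of 7.19 (3.72 to 15.2). Without a cluster of 30 deeply sequenced endothelial cells, of which 24 were from Sham, Cdh13 stood at 57.3 and 227 CPM and Itgb3 at 22 and 121. These 2 of 12 genes compared were higher (4.78% of all genes) and 2 were lower (8.18%). The lower ones were Itga1, at 294 and 143 CPM, and Itgb5, at 223 and 42.8. For Itgb5 podocyte RNA alone would give 189 and 42.1 CPM, most of each measured level. Itgav in endothelium, at 194 and 125 CPM, stood over the 141 and 66.7 CPM that podocyte RNA alone would give. The class was shallow, with median depths of 2330 and 3799 UMIs, and small, with 201 and 102 cells.

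In the mean of the libraries, mesangial and smooth muscle cells stood highest for 4 alpha chains that pair with Itgb1. Of these, Itga9 was not confined to the class. It stood at 139 CPM in endothelium in the mean and had a UMI in at least 38.4% of monocytic cells of Sham and of IRI24h-TDN. Itga8, which binds nephronectin and is needed for kidney formation, stood at 313 and 233 CPM in Sham and IRI24h-TDN, Itga9 at 298 and 283, Itga7, a laminin receptor of muscle, at 215 and 173, and Itga10, a collagen receptor, at 26.0 and 19.9. Itga4 stood at 228 and 207 CPM and Itga1 at 355 and 261. The Itga8 values hid a split between clusters: it stood at 287 and 369 CPM in the cluster of 165 Sham cells and at 449 and 81.6 in that of 98. Itga5 was higher in IRI24h-TDN, at 11.7 and 40.9 CPM (ratio 3.48, interval 2.13 to 6.01). It was the only 1 of 17 genes compared that was higher (3.04% of all genes), and none were lower (3.24%). Cdh6 stood at 341 and 177 CPM. The median log2 ratio was -0.07 over the 17 genes and 0.05 over all genes compared.

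Fibroblasts, with 100, 39 and 36 cells, led for Cdh11, at 1017 CPM in Sham (interval 928 to 1113) against 397 in IRI24h-TDN (343 to 456) and 529 in IRI24h-TD (423 to 652). Fibroblast markers as a list summed to 9383, 35476 and 3153 CPM, so the cells under this name differed between libraries. PEC markers in the same cells summed to 5618, 3083 and 7824 CPM and podocyte markers to 3246, 1733 and 6652, both above the fibroblast markers in IRI24h-TD. Their part in the Cdh11 levels was not tested.

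Leukocyte integrins stood highest in the monocytic, neutrophil and lymphocyte classes, and of these Itga4 was also high in mesangial and smooth muscle cells. Itgb2 pairs with Itgal, Itgam and Itgax to form receptors for ICAMs and complement, and Itga4 with Itgb1 or Itgb7 binds VCAM1 or MAdCAM1. Of the 7 genes Itga4, Itgae, Itgal, Itgam, Itgax, Itgb2 and Itgb7, 4 had a promoter sequence in the RefSeq table (GRCm38.p6, 250 bases before to 50 after the gene start). Those of Itgam, Itgax and Itgb7 are shown because these genes mark different leukocytes below. Capitals mark GAGGAA, a core bound by myeloid Ets factors, read on either strand, so that TTCCTC is the same motif. They lie at chr7:128062390-128062689 on the plus strand, chr7:128129300-128129599 on the plus strand and chr15:102231886-102232185 on the minus strand.
Itgam: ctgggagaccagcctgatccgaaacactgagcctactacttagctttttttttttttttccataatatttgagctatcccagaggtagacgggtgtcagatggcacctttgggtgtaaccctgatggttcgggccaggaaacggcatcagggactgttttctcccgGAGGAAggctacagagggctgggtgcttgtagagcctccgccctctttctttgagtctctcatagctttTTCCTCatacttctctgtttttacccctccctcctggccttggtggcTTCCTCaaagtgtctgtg
Itgax: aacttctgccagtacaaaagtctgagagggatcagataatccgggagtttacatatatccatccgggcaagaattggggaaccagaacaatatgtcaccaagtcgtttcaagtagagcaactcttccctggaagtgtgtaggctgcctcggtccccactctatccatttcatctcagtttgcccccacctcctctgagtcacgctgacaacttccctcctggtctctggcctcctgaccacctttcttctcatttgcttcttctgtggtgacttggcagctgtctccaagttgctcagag
Itgb7: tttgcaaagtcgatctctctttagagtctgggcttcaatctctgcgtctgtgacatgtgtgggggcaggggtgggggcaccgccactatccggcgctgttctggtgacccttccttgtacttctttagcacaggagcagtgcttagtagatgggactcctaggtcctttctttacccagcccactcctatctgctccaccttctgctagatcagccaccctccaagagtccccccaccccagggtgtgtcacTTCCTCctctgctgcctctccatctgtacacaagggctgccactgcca
The motif occurred 3 times in the Itgam window, once in that of Itgb7, and not in those of Itgax and Itga4. It occurs in 9289 of 32851 such windows (28.3%), so a match is only a description.

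In monocytic cells Itgam (CD11b) stood at 300.2 CPM in Sham (interval 274 to 328) and 1567 in IRI24h-TDN (1537 to 1599), a ratio of 5.22 (4.77 to 5.73). It was higher in each of the 3 monocytic clusters that could be compared: 324 and 1531 CPM in the first, 853 and 2298 in the second, and 89.4 and 1395 in the third. The 15 monocytic cells of IRI24h-TD stood at 1557 CPM. Its beta partner Itgb2 stood at 389.8 and 518 CPM. Over the class the other alpha chains differed less, with Itgal at 137 and 229 and Itgax (CD11c) at 252 and 305. Within the clusters Itgal did not lie 1 way: it stood at 68.4 and 207 CPM in the first. In the second it stood at 834 and 412, and in the third at 189 and 70.0. The first held 254 and 681 cells of Sham and IRI24h-TDN, the second 34 and 188, and the third 40 and 39. Itga5 stood at 98.8 and 242 CPM, a ratio of 2.45 (2.08 to 2.90), and lay higher in the same 3 clusters.

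Itgae (CD103) lay the other way, at 82.3 CPM in Sham and 6.77 in IRI24h-TDN, a Sham to IRI24h-TDN ratio of 12.2. Of its UMIs, 129 of 134 in Sham and 39 of 43 in IRI24h-TDN came from 1 small cluster with the dendritic cell gene Xcr1 among its leading genes, where it stood at 427 and 171 CPM. That cluster held 40 of 335 monocytic cells in Sham and 39 of 954 in IRI24h-TDN, so the difference was smaller within the cluster than over the class, whose makeup differed. Itgb7, the partner of Itgae, stood at 103 and 36.4 CPM in all monocytic cells and at 401 and 289 in that cluster. Itgax in the same cluster stood at 235 and 1028 CPM.

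Of 20 genes compared in monocytic cells, 4 were higher (11.3% of all genes) and 3 lower (5.78%), with a median log2 ratio of 0.27 against 0.22 for all genes compared. The higher ones were Itgam, Itga5, Cdh1 and Itga2, and the lower ones Itgae, Itgb7 and Itga8. Itga2, at 2.46 and 8.03 CPM, was near what podocyte RNA alone would give, 2.98 and 7.6. Cdh1, an epithelial gene, stood at 7.37 and 24.2 CPM in these cells.

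In the mean of the libraries lymphocytes, with 46 and 26 cells, stood highest for Itgal, Itgb7 and Itga4. Itgal stood at 396 and 209.9 CPM in Sham and IRI24h-TDN, Itgb7 at 334 and 171, and Itga4 at 193 and 746. In Sham alone Itga4 was higher in mesangial and smooth muscle cells. Of the monocytic clusters, that led by Chil3 held Itgal at 834 and 412 CPM, and the Xcr1 cluster held Itgb7 at 401 and 289. The leading class of each of these genes changed in some alternative settings. In the 20 neutrophils of IRI24h-TDN, Itgam stood at 347 CPM and Itgb2 at 236, while Nphs1 stood at 88.2% of its podocyte level and Itga3 at 727 CPM.

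**Figure D4:**
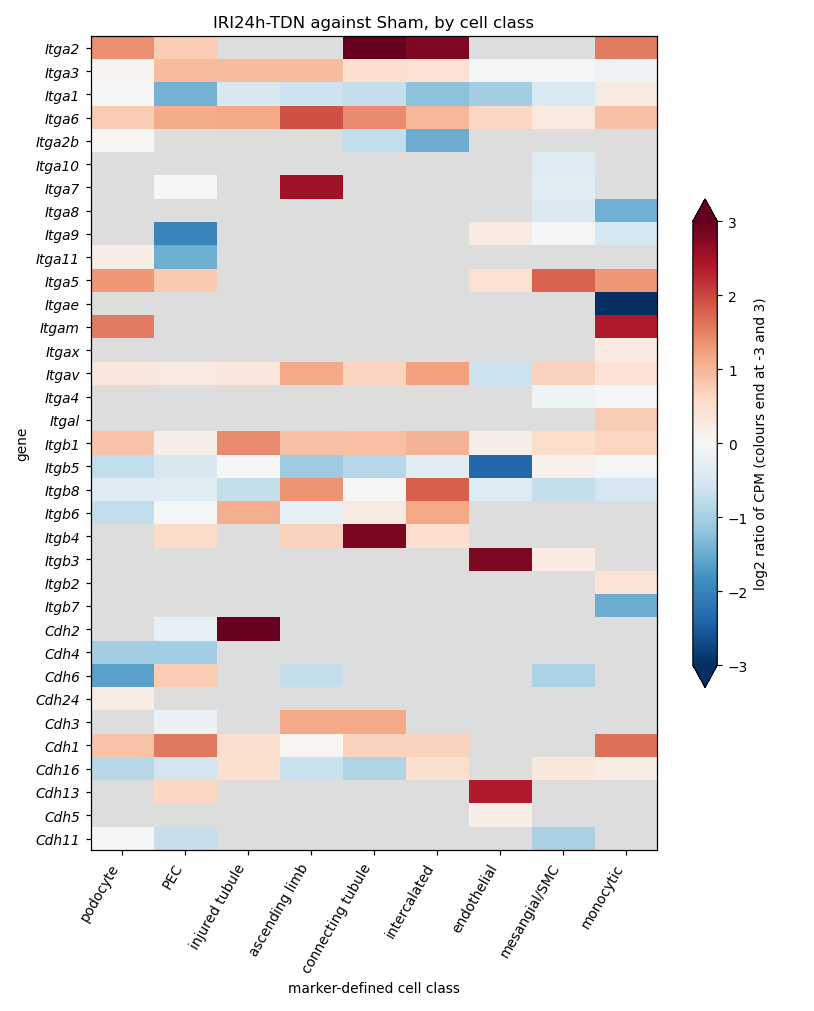
Log2 ratio of IRI24h-TDN to Sham for each gene (rows) in the 9 classes compared (columns), with colours ending at -3 and 3 and grey where the 2 libraries held under 50 UMIs together. Itga6 and Itgb1 are above 0 in all 9 classes, and Itga1 is below 0 in 8.

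Across the 9 classes the Itgb1 log2 ratio was above 0 in 9, from 0.17 in PECs to 1.41 in the Havcr1-led tubule cluster, and that of Itgav in 8. Itga1 was below 0 in 8 classes and Itgb5 in 7, down to -1.42 in PECs and -2.35 in endothelium. Itga5 was above 0 in all 5 classes where it was compared, from 0.46 to 1.77, and Itga2 also in 5 of 5. Of 142 gene and class pairs compared over the 9 classes, 30 were at least 2-fold higher, against 8.33% of all genes compared, and 14 were at least 2-fold lower, against 6.66%. For IRI24h-TD, 43 pairs were compared in podocytes and PECs, of which 3 were higher, against 4.25%, and 9 lower, against 7.57%. Itgb1 and Itga2 were also higher, and Itgb5 lower, in podocytes, whose RNA was found in every class. Where it reached most of a level (Itgb5 in endothelium, Itga2 in monocytic cells) this is given above. In the ascending limb podocyte RNA would give 44.9 of the 636 CPM of Itgb1 in IRI24h-TDN.

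Chains that can pair were set side by side. Of 24 known alpha and beta pairs, 23 had both chains among the 36 genes, and a pair was counted in a class when both chains had a UMI in at least 10% of its cells in every library with 20 or more of them. Podocytes had 6 such pairs, PECs 9, PTECs 7, the Havcr1-led cluster 6, the ascending limb 7, the distal convoluted and connecting tubule 6 each, intercalated cells 7, endothelium 7, mesangial and smooth muscle cells 8, fibroblasts 7, monocytic cells 11, neutrophils 12 and lymphocytes 9. Podocytes had Itgb1 with Itga1, Itga2, Itga3 and Itgav, and Itgav with Itgb5 and Itgb8. PECs had Itga5, Itga6 and Itga9 with Itgb1 and Itgav with Itgb6, which podocytes did not, and had no Itga2 with Itgb1. Itga6 with Itgb4 was counted only in intercalated cells, where thinning brought Itgb4 to 7.83% of Sham cells, and Itga7 and Itga8 with Itgb1 only in mesangial and smooth muscle cells. Thinned to 2400 UMIs a cell, the counts were 5 in podocytes, 7 in PECs, 10 in monocytic cells and 8 in neutrophils, and 90 in all classes together in place of 108. Pairs of podocyte chains in neutrophils and the pair of Itga3 with Itgb1 in monocytic cells include podocyte RNA: Itga3 stood there at 90.2 and 81.2 CPM in Sham and IRI24h-TDN, where podocyte RNA alone would give 63.8 and 66.7. The same holds for Itgav with Itgb5 in endothelium, whose Itgb5 levels were given above. Itga3 with Itgb1 was also counted in endothelium and lymphocytes, and Itgav with Itgb5 in lymphocytes. Podocyte markers summed to 13765 and 5180 CPM in endothelium of Sham and IRI24h-TDN, and to 967 and 482 in lymphocytes. The part of podocyte RNA in these and the other pairs was not tested.

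**Figure D5:**
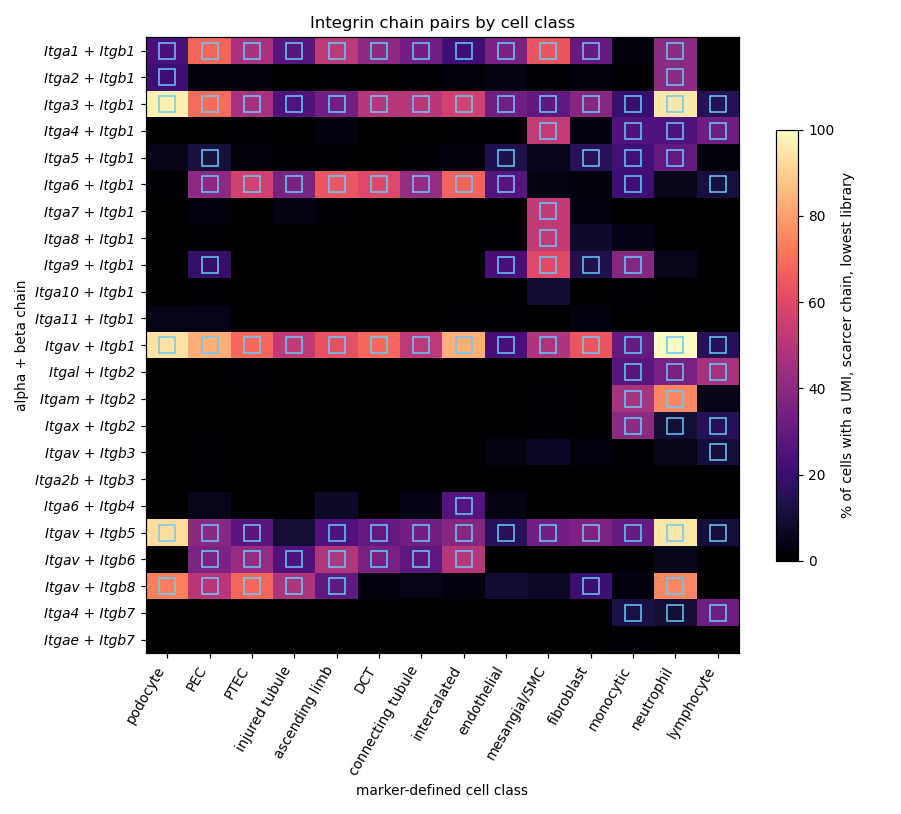
For 23 alpha and beta pairs (rows) and 14 classes (columns), the percent of cells with a UMI of the scarcer chain in the library where it is lowest. Blue squares mark the pairs at 10% or more, 6 in podocytes and 9 in PECs.

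Integrins act with ligands and with proteins that tie them to actin, and 46 such genes were followed in the same way. Of 22 cytoplasmic integrin partners, 18 could be compared in podocytes, where 0 were at least 2-fold higher in IRI24h-TDN than in Sham and 2 were lower (4.53% and 6.95% of all genes). Cd151, a tetraspanin that binds the pair of Itga3 and Itgb1, led in podocytes at 983 CPM in the mean, and Tln1, which activates integrins, stood at 427. Of 8 catenins and other cadherin partners compared in podocytes and in PECs, 0 were higher or lower in either. In the Havcr1-led cluster 8 of 18 cytoplasmic partners were higher, against 26.9% of all genes, with Actn1 (alpha-actinin) at 13.5 and 362 CPM. Ilk was at or near 0 in every class, at most 0.0222 CPM, and how reads of overlapping genes were counted is not given in the sources used here, so this value is uncertain.

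Among the 15 ligands, Spp1 (osteopontin), a ligand of Itgav, Itga9 and Itga4 receptors, was at least 2-fold higher in IRI24h-TDN in all 9 classes compared, at 4810 and 43567 CPM in the ascending limb, 2339 and 10666 in PECs and 9.38 and 93.0 in podocytes. Markers of the ascending limb stood in IRI24h-TDN podocytes at 0.125% of their level in that class, and at this share RNA of the ascending limb alone would give 54.5 of the 93.0 CPM. In endothelium it would give 1905 of 2742 CPM and in mesangial and smooth muscle cells 514 of 621, whereas in PECs it would give 341 of 10666. Npnt (nephronectin), the ligand of Itga8 with Itgb1, was lower in podocytes, at 4048 CPM in Sham against 1927 in IRI24h-TDN and 2001 in IRI24h-TD, and in PECs stood at 841, 384 and 462, of which podocyte RNA alone would give 279, 114 and 234. The PEC value of IRI24h-TD was under 2-fold from Sham. Vcam1, a ligand of Itga4 with Itgb1, stood at 140.4 and 779 CPM in endothelium and 211 and 787 in monocytic cells. Fn1 (fibronectin), the ligand of Itga5 with Itgb1, stood at 36.2 and 630.1 CPM in monocytic cells and at 68.6 and 167 in mesangial and smooth muscle cells. Itga5 was at least 2-fold higher in both classes and also in podocytes, where Fn1 had 12 and 32 UMIs, too few to be compared.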

How the data were processed

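Single-cell UMI counts per gene and cell were used as deposited by the authors, 1 table per library, with no normalization. Per the labels, the submitters' processing notes name CASAVA 1.8, UMI-tools, Seurat and the build mm10; the aligner, the annotation and the cell filter are not given in the sources used here. Each table lists only genes with at least 1 UMI in its library, so an unlisted gene has 0.

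Cells with at least 200 genes and at most 50% mitochondrial UMIs were kept. Counts were scaled to 10000 per cell, and 2000 variable genes, 30 principal components, Harmony correction between libraries (own code), 15 neighbours and Leiden clustering at resolution 1.0 were used (Python 3.11.15, scikit-learn 1.9.0, leidenalg 0.10.2). This gave 39 clusters. They were named from 15 marker lists; the scoring rule and the merging of mesangial with smooth muscle cells were set after the clusters had been seen and before the genes' levels by class were computed. Doublets were kept in the main values, and the top 6% of simulated-doublet scores were left out in an alternative.

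UMIs of a gene were summed per class and library and scaled to 1000000 UMIs (CPM). With 1 library per group there is no test and no p-value. Classes with at least 50 cells in both libraries were compared, for genes with at least 50 UMIs over both, and a gene was counted at a ratio of at least 2. Log2 ratios add 0.5 UMI to each library. A fold against 0 UMIs uses a floor of 3 UMIs per library. Shares of cells were also computed with each cell thinned to 2400 UMIs, which kept 24587 of 25823 named cells. The level that podocyte RNA alone would give is the podocyte level in that library times the class's share of the podocyte level of Nphs1. TMM factors came from edgeR 4.0.16 (R 4.3.3).

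All 36 genes are in the map of levels, but not each has its values in the text. Cdh24, with 325 UMIs in all, was compared between IRI24h-TDN and Sham in podocytes alone, with a log2 ratio of 0.23. Values are given for up to 3 per class highest over the median of the other classes at 50 CPM or more, for up to 3 per direction with the largest ratio in each comparison whose interval leaves out equality, for their pairing chains, for a fixed list of common integrins and cadherins, and for the ligands and partners with the largest ratios. The genes, lists and rules were chosen with earlier results of these data known. Only the count of genes by ratio and the ratio intervals were tested on simulated counts. These were drawn with Poisson error, which the intervals assume, from podocyte and monocytic sums. The clustering, the naming, the thinning and the podocyte RNA levels were not tested in this way.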

Additional observations from a re-analysis of the deposited data

How the results depend on the processing

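The comparisons were repeated under 13 other settings. For 56 single genes named in the comparisons, 623 of 661 values kept their side of the 2-fold line, 38 came under it and 0 reversed; among those under it were Itga6 in PECs and Itgb1 in intercalated cells. The leading class was the same for 29 to 36 of the 36 genes. The counts that moved by over 1.5 times follow, as higher or lower in IRI24h-TDN than in Sham unless IRI24h-TD is named; the cause was not tested. The counts reported are 30 higher and 14 lower over the 9 classes, and 3 and 9 for IRI24h-TD. At 20% mitochondrial UMIs, 19 were higher (the Havcr1-led cluster and the ascending limb could not be compared, and PTECs, with 1 of the 19, were compared in addition), with 1 lower in podocytes, 1 higher in PECs, 1 lower each in connecting tubule and mesangial cells, and 2 higher in IRI24h-TD PECs. At 500 genes per cell, 1 was lower in podocytes, 7 were higher and 1 lower in the Havcr1-led cluster, and 5 were higher in IRI24h-TD, 3 of them in PECs. With doublets left out, 1 was lower in podocytes, 4 higher in PECs, 1 lower in the Havcr1-led cluster and 3 higher in intercalated cells. With no correction, 1 was lower in podocytes, 1 lower in mesangial cells and 2 higher in IRI24h-TD PECs. At Leiden resolution 0.6, 2 were higher in mesangial cells and 5 in IRI24h-TD, 3 of them in PECs; at 1.5 none moved. The Havcr1-led cluster was not compared in those 3. With 3000 variable genes, 1 was lower in podocytes, 4 higher in PECs, 2 higher in the Havcr1-led cluster, 2 higher and 1 lower in mesangial cells, 5 higher in IRI24h-TD, and in its PECs 3 higher and 7 lower. Without the clusters of low depth, of mostly 1 library or with podocyte genes in another class (7, 22, 27, 32 and 36, chosen after seeing the data), 1 was lower in podocytes. With a mean over cells, 1 was lower in podocytes and 2 higher in IRI24h-TD PECs. With TMM factors, 1 was lower in podocytes, 2 higher and 1 lower in the Havcr1-led cluster, 0 lower in the ascending limb and 0 higher in IRI24h-TD PECs. At 20 UMIs, 47 were higher in all, 5 in podocytes, 9 in intercalated cells, 6 in endothelium and 4 in mesangial cells, and 2 lower in the ascending limb. At 200 UMIs, 18 were higher and 6 lower in all, with 0 lower in podocytes, 0 lower in the ascending limb, 2 higher in connecting tubule, 3 higher and 1 lower in intercalated cells, 0 higher and 1 lower in endothelium, 0 higher in mesangial cells and 2 higher and 1 lower in monocytic cells; in IRI24h-TD 3 were lower, 1 of them in podocytes and 2 in PECs. At 1.5-fold, 52 were higher and 30 lower in all (18.3% and 14.7% of all genes compared), with 6 and 5 in podocytes, 7 higher in PECs, 1 lower in the Havcr1-led cluster, 8 and 4 in the ascending limb, 7 and 4 in connecting tubule, 2 and 3 in mesangial cells and 7 higher in monocytic cells; in IRI24h-TD 10 were higher and 14 lower (11.3% and 14.6%), with 8 lower in podocytes and 7 higher in PECs. With 1 library per group and pooled kidneys, ratios carry an unknown spread between animals. Depth limits the rare chains: of the 36 genes, 9 were under 50 CPM in every class. No paired analysis was possible because each group is 1 library.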

Other observations

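Clusters that stayed unnamed also held these genes. A cluster of 551 cells led by Pamr1 and Aldh1a1 had podocyte-level integrins, with Itgb1 at 2738 CPM in Sham against 4919 in IRI24h-TDN and 4939 in IRI24h-TD, Itga3 at 717, 998 and 842, and Itgb8 at 274, 282 and 258. Itga6 was at most 6.19 CPM and Cdh6 at most 15 in the same cells.

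In a cluster of 73 cells led by cell-cycle genes such as Top2a and Mki67, Cdh6 stood at 563 CPM in the 28 cells of IRI24h-TDN and 594 in the 31 of IRI24h-TD, and Cdh16 at 471 and 480.2. Itgb6 stood there at 119 and 140.3 CPM and Itga6 at 148 and 216. The 14 Sham cells were too few to give a level.

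In a cluster of 41 cells led by Krt19 and Psca, Cdh1 stood at 865 CPM in the 28 cells of IRI24h-TDN, and Itga6 at 302. Itgb4 stood at 140.7 CPM in the same 28 cells, above its level in intercalated cells.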
